A study of Solanum tuberosum with 10 samples.

Results

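Transcript levels directly after ultrasound (US) exposure were compared between 2 of the 10 libraries of an in vitro potato experiment, 1 from ultrasonicated explants at 0 h and 1 from untreated control explants at 0 h. The material was wild-type potato (Solanum tuberosum) of the cultivar Desirée, a crop grown for its tubers. Single-node explants were cut from in vitro plantlets aged 4 weeks, and the US group was exposed at 35 kHz and 70 W for 20 min. Control explants were cut in the same way and were not exposed. Whether they were held for the same 20 min before sampling is not stated. Time since cutting and handling thus cannot be told apart from US at 0 h. The other 8 libraries are control and US material at later times, explants after 24 and 48 h and whole plantlet parts (leaves, stems and roots) after 1 and 4 w, although the labels name leaf throughout. The comparison was chosen by its time and treatment labels, not by any measured value. The methods describe pooled biological replicates and the labels a single one. Either way each group is 1 library, the 0 h difference has no replicate check within the sequencing data, and no p-value is given for it.

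Ultrasound in liquid makes bubbles form and collapse, which shears cells and gives short-lived reactive oxygen species. Cutting an explant is itself a wound, and wounded potato tissue is known for protease inhibitors, which block the digestive enzymes of insects, and for peroxidases and lignin-type polymers at the cut surface. Abscisic acid (ABA) is the plant hormone of water shortage: its synthesis is set by 9-cis-epoxycarotenoid dioxygenase (NCED), and it induces dehydrins and type 2C protein phosphatases that damp its own signal.

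The files give no gene names, so names are those the study assigns to the PGSC identifiers, and genes without one are given by identifier only. Reads can be set beside the assay the study used for the same transcripts through its RT-qPCR primers. The study ran that assay on biological replicates. It reports the same direction as its sequencing for every gene it chose, the 3 below included. Its RT-qPCR values were not used here. The 3 pairs below are shown because they belong to the gene with the largest rise among PGSC genes reaching 4 RPM, to one with no read in US, and to the gene of ABA synthesis. They are designed oligos written 5′ to 3′ and have no marked part.
PGSC0003DMG400038200 forward: atcgactcatcaagttccc
PGSC0003DMG400038200 reverse: agtctcttcctttttgcgt
PGSC0003DMG400030182 forward: caacaaacactggagcag
PGSC0003DMG400030182 reverse: ttagagtggtccaaagcc
PGSC0003DMG400027633 forward: ccaaatgtgttcaaggcgt
PGSC0003DMG400027633 reverse: ttagggaaaacagggcgac
The first gene, a ribosomal protein S7 of chloroplast type, lies on chromosome 1 at 51065414 to 51065809 of the SolTub 3.0 build, on the minus strand. The second, a dirigent protein 24-like gene, lies on chromosome 4 at 6664537 to 6665910 on the plus strand. The third, NCED, lies on chromosome 7 at 51778895 to 51781175 on the minus strand.

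Levels are reads per 1000000 reads of the library total (RPM). The control library held 33850938 reads and the US library 36468362, so 1 RPM stood for 33.85 and 36.47 reads. By this rule of size, a feature was up or down in US if it reached 1 RPM in either library and differed by at least 2 on the log2 scale, which is 4-fold. Of 21236 features with at least 1 RPM in either library, 360 were up in US (1.7%) and 437 were down (2.06%). The median difference over all 21236 was 0.02 on the log2 scale (SD across features 0.90), and 80.6% of them lay within 1. The nearest gene inside the rule on the upper side, PGSC0003DMG400017848, was at 2.42 RPM in the control and 9.73 RPM in US, and the nearest outside, PGSC0003DMG400015977, at 5.997 and 23.97 RPM. On the lower side, PGSC0003DMG400026934 at 6.38 and 1.59 RPM was just inside, and the glucan endo-1,3-beta-glucosidase 12-like gene PGSC0003DMG400014457 at 8.42 and 2.11 RPM just outside.

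**Figure D1:**
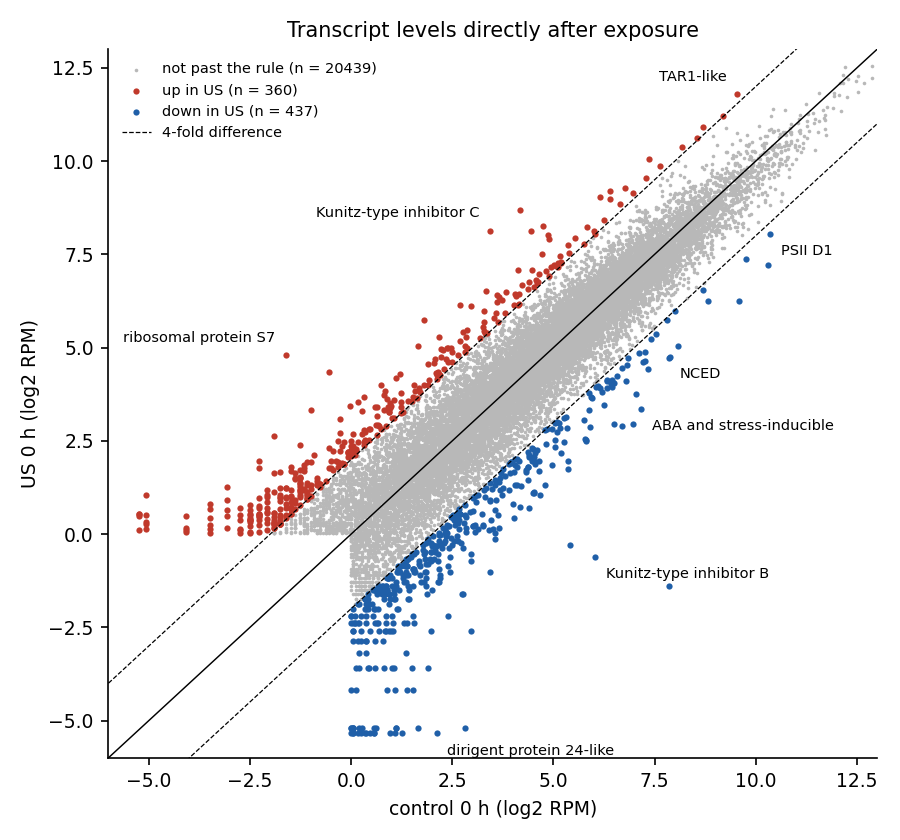
Each point is 1 of 21236 features, with the control 0 h level on the x axis and the US 0 h level on the y axis (log2 RPM). The 360 features up in US lie above the upper dashed line and the 437 down in US below the lower one; the solid line marks equal levels.

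Many of the 797 features were low and a few were abundant. Among the features up in US, 103 stayed under 2 RPM in the higher library and 47 exceeded 100 RPM. Among those down in US the numbers were 113 and 27. A log2 difference of at least 4 was seen for 25 features up and 52 down. No reads in the lower library were found for 4 features up and 14 down. Summed over the features, the up set stood at 5331 RPM in the control and 27130 RPM in US, and the down set at 13176 and 2137 RPM.

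The share past the rule depended on level. At a mean log2 RPM between 0 and 2, 2.68% of 3548 features were up and 4.17% down. Between 4 and 6, 0.644% and 0.66% of 6363 were up and down. At 8 and over, 0.734% of 1363 were up and 0.22% down, which is 10 features against 3. The spread of the differences narrowed from an SD of 1.099 to one of 0.60 between the first and the last of these bins. Below a mean of 0 the shares were 15.4% and 18.4% of 817 features, but a feature enters there with at least 1 RPM in one library only if the other is lower, so the rule itself raises them. When features were binned by their mean in the 8 other libraries instead, 3.9% were up and 3.9% down between 0 and 2, so the lean to down there was not kept. The top bin held 0.606% up and 0.0866% down, which is 7 features against 1.

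**Figure D2:**
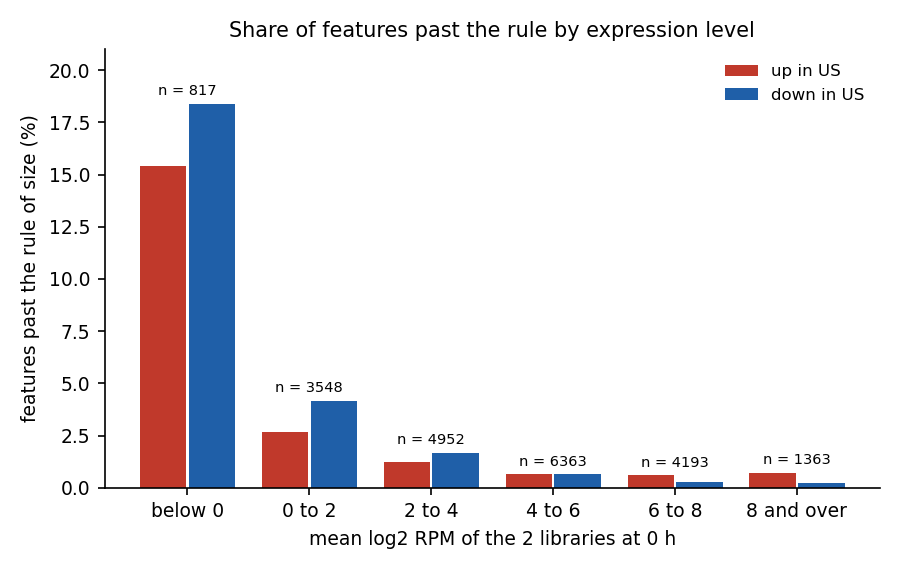
Percent of features past the rule of size (y axis) in bins of the mean log2 RPM of the 2 libraries (x axis), red for up and blue for down in US, with the number of features in each bin. The share falls from 15.4% and 18.4% in the lowest bin to 0.734% and 0.22% in the highest.

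Whether US at 0 h differed from US at the other times was the one question with a test. In limma, with time as a block and the US differences of the 4 later times as the spread, 0 of 20494 genes had a 0 h deviation past an adjusted p of 0.05 (Benjamini-Hochberg, 3 residual degrees of freedom). An unadjusted p under 0.05 was found for 983 of the 20494 genes, which is no more than the share of 0.05 that comes with no deviation at all. The smallest adjusted p was 0.767, and it was 0.0741 without the 24 h pair, again with 0 genes past the threshold. No single gene's 0 h response is thus shown to differ from that of later times. The 3 genes of smallest p on the upper side were a xyloglucan endotransglucosylase/hydrolase gene (PGSC0003DMG400026189), an acyl-protein thioesterase 2-like gene (PGSC0003DMG400028622) and a metallocarboxypeptidase inhibitor-like gene (PGSC0003DMG400030731, which overlaps another feature). Their deviations were 2.62 ± 0.40, 2.97 ± 0.46 and 4.34 ± 0.68 (log2, SE). On the lower side they were beta-D-xylosidase 1 (PGSC0003DMG400022933), a glycine-rich protein-interacting protein (PGSC0003DMG400028817) and aquaporin TIP1-1 (PGSC0003DMG400028182), with deviations of -3.23 ± 0.44, -2.89 ± 0.41 and -3.58 ± 0.52. The thioesterase gene was at 29.4 RPM in the control and 242.7 RPM in US, above the 16.8 to 98.1 RPM of the 8 other libraries. The glycine-rich protein-interacting gene was at 27.5 and 2.47 RPM, and both were below its 42.7 to 118 RPM elsewhere.

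Genes of ABA synthesis and response were lower in US. Of 10 measured members, 8 were lower, 4 of them past the rule, and the median difference was -1.74 on the log2 scale, against 0.02 for all features. The study picked 3 of the 4 from these libraries, which is no independent evidence of direction. Without its 0 h picks, 1 of 7 was down past the rule, against 2.06% of all features, and the median was -1.13. NCED was at 234.5 RPM in the control and 27.06 RPM in US, 8.66-fold lower (exact 95% interval 8.11 to 9.27, counting error only), and at 0 to 18.9 RPM in the 8 other libraries. The control at 0 h thus stood far above all of them, and US at 0 h was also above each.

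The gene named for TAS14 (PGSC0003DMG400003530), an ABA-inducible dehydrin of tomato, was at 144.6 RPM in the control and 10.23 RPM in US, 14.1-fold lower (12.7 to 15.7). Both ATHB-12-like genes, homeobox factors known in Arabidopsis to be induced by ABA, were lower. PGSC0003DMG400000248 was at 152.9 and 24.76 RPM and PGSC0003DMG400012118 at 86.44 and 16.40 RPM. The 2C-type phosphatase genes PGSC0003DMG400030332 and PGSC0003DMG400009112 missed the rule at log2 differences of -1.98 and -1.50. A late embryogenesis abundant gene (PGSC0003DMG400027031), at 8.63 and 25.75 RPM, and an HVA22-like gene (PGSC0003DMG402023061), at 3.31 and 6.58 RPM, had the opposite sign. For 5 of the 10 members the control at 0 h was the highest of all 10 libraries. At 24 h in the control, 8 of the 10 were lower than at 0 h, 6 past the rule. Their summed level was 1515 RPM in the control and 483 RPM in US at 0 h, and the control at 48 h came close to the first with 1494 RPM. Most of that was a senescence-associated gene 21-like gene (PGSC0003DMG400031788), at 1164 RPM there and at 573.8 and 262.3 RPM at 0 h.

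**Figure D3:**
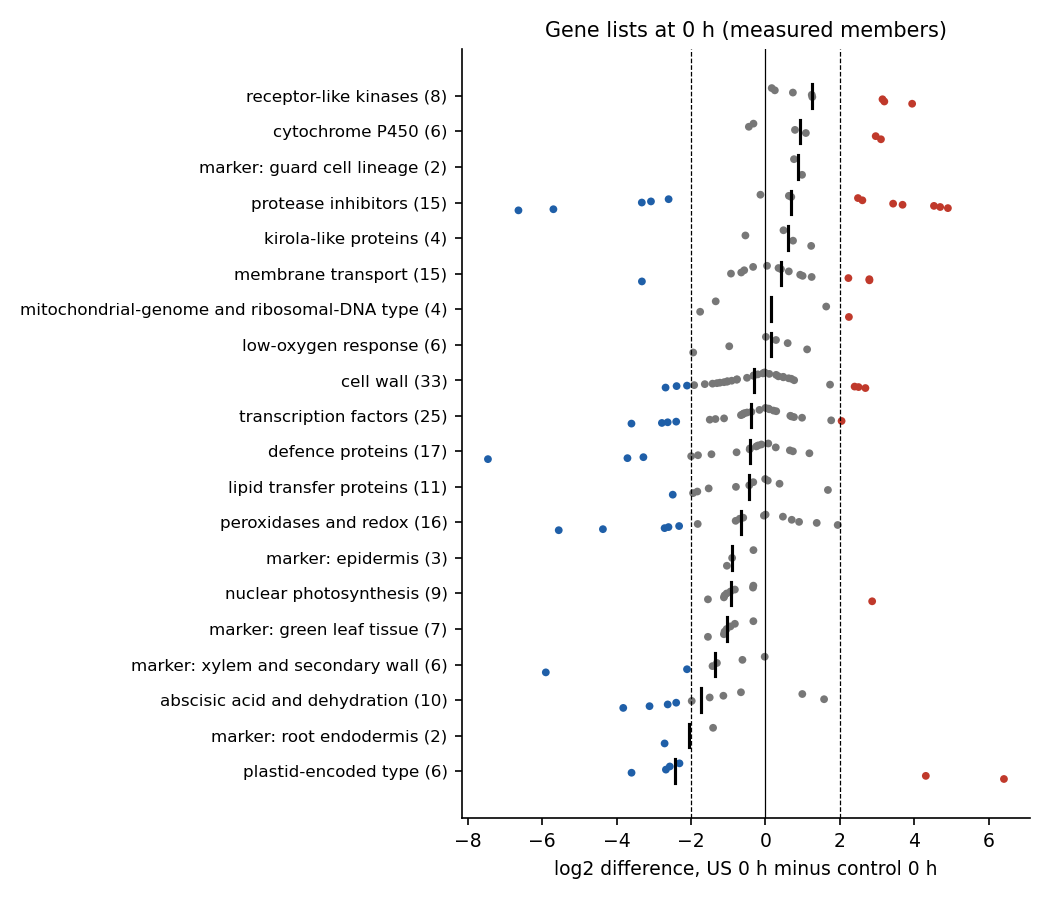
Log2 difference between US and control at 0 h (x axis) for the measured members of each gene list (rows, number measured in parentheses), ordered by the median (black bar). Red and blue points are past the rule of size at 2 and -2 (dashed); the ABA list has its median at -1.74 and the receptor-like kinases at 1.25, while protease inhibitors lie on both sides.

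Protease inhibitors split into members far up and members far down. Of 15 measured, 7 were up and 5 down in US, against 1.7% and 2.06% of all features. The study picked 10 of these 12 at 0 h. The 5 measured members that were not 0 h picks had 1 up, 1 down and a median of 0.63. The summed level of the 15 was similar, 5525 RPM in the control and 4789 RPM in US. The cystatins, inhibitors of papain-type cysteine proteases, were up. PGSC0003DMG400005950 was at 17.9 RPM in the control and 414.9 RPM in US, 23.1-fold higher (21.3 to 25.1), PGSC0003DMG400005921 at 0.679 and 20.4 RPM, and PGSC0003DMG400026899 at 21.8 and 281.2 RPM. In the 8 other libraries the last was at 4.62 to 492 RPM with a median of 207, so the control at 0 h lay in the lower part of this range and US at 0 h above its median. The Kunitz-type inhibitor C gene (PGSC0003DMG400010137) was at 10.8 and 281.6 RPM, 26.0-fold higher (23.4 to 28.9), and its control 0 h level was the lowest of the 10 libraries. Both Kunitz-type inhibitor B genes were lower. PGSC0003DMG400010128 was at 65.6 RPM in the control and 0.658 RPM in US, 99.7-fold lower (66.8 to 156), and PGSC0003DMG400009512 at 42.8 and 0.823 RPM. Proteinase inhibitor II (PGSC0003DMG400004547), a wound-induced inhibitor of trypsin and chymotrypsin, was the most abundant of those down, at 1254 and 148.7 RPM.

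Members of one direction lay side by side. On chromosome 3, 4 genes up in US lay between 44120177 and 44319900, the Kunitz-type inhibitor C gene and both cysteine protease inhibitor 8-like genes (PGSC0003DMG400010136 and PGSC0003DMG400010144) among them. A pair of inhibitors down in US lay just before them, PGSC0003DMG400010128 starting at 43944960 and PGSC0003DMG400010170 starting at 43994118. Further along, 5 genes down in US lay between 49798113 and 50126839, 3 of them inhibitors, while PGSC0003DMG400009513 and PGSC0003DMG400009514 in between differed by -0.13 and 0.63 on the log2 scale, the first turning to 0.15 under quantile normalization. The 3 cystatins lay within 108.4 kb of chromosome 6. Such tandem copies can be alike in sequence, and the study kept uniquely aligned reads, so their split between copies is uncertain.

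Receptor-like kinases, membrane proteins that sense outside signals, and a few transport genes were higher in US. All 8 measured kinases were higher, 3 past the rule, against 1.7% of all features up in US. The study chose all 3 at 0 h, and the other 5 had none past the rule and a median of 0.74. An LRR receptor-like kinase gene (PGSC0003DMG401015527) was at 3.49 RPM in the control and 53.7 RPM in US, 15.4-fold higher (12.8 to 18.7). The gene PGSC0003DMG402023575 was at 10.1 and 92.4 RPM, above the 2.57 to 28.1 RPM of the 8 other libraries; it overlaps another feature and is uncertain. The leaf rust 10 type kinase gene PGSC0003DMG400030533 was at 29.2 and 259 RPM.

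Of 15 transport genes 3 were up and 1 down, against 1.7% and 2.06% of all features, and all 4 were 0 h picks of the study. The other 11 had none past the rule and a median of 0.35. The gene named for Nramp5 (PGSC0003DMG400027964), a manganese transporter in rice, was at 413 RPM in the control and 1940 RPM in US, against 138 to 503 RPM elsewhere. An NRT1/PTR 7.3-like gene (PGSC0003DMG400024120), of the nitrate and peptide transporter family, was at 84.7 and 587 RPM. The third was an ABC transporter G 11-like gene (PGSC0003DMG400012547), whose Arabidopsis namesake exports surface lipids, at 12.1 and 84.4 RPM, and it stayed at 0.266 to 1.98 RPM in the other libraries. US at 0 h was thus the highest of the 10 libraries for all 3. The exception was aquaporin TIP1-1, a vacuolar water channel (PGSC0003DMG400028182), at 55.9 RPM in the control and 5.59 RPM in US, the lowest of the 10.

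Cell wall genes lay on both sides. Of 33 measured, 3 were up and 3 down, with a median of -0.31, and all 3 up and 1 of those down were 0 h picks. The other 29 had 0 up and 2 down with a median of -0.32, and all features had 1.7% up and 2.06% down. The xyloglucan endotransglucosylase/hydrolase genes PGSC0003DMG400021877 and PGSC0003DMG400026189, which cut and rejoin wall xyloglucan, were at 165 and 1063 RPM and at 110 and 624 RPM. Extensin-like PGSC0003DMG401032203, a structural wall protein, was at 46.7 and 246.2 RPM. For it and PGSC0003DMG400026189 the control at 0 h was the lowest of the 10 libraries, and US at 0 h was the highest for none of the 3. The whole list summed to 1314 RPM in the control, 3111 RPM in US and 2090 to 5647 RPM in the other libraries. Beta-D-xylosidase 1 was at 53.7 RPM in the control and 8.36 RPM in US, with 23.1 to 217 RPM in the other libraries, so that US at 0 h was the lowest of the 10. Of 6 cytochrome P450 genes 2 were up, both 0 h picks and CYP736A12-like, while the other 4 had none past the rule. The 2 were PGSC0003DMG400009825 at 4.52 and 38.9 RPM and PGSC0003DMG400009822 at 17.4 and 136 RPM. For PGSC0003DMG400009825 the control at 0 h was the lowest of the 10 libraries, and US at 0 h was the highest for neither.

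Among peroxidases and defence proteins the members past the rule were all down in US. Of 16 peroxidase and redox genes 5 were down and 0 up, with 6 higher in all, and of 17 defence proteins 3 were down and 0 up, with 5 higher. The study picked 3 of the 5 and all 3 defence genes at 0 h. The other 13 peroxidase and redox genes had 2 down and a median of -0.04, and the other 14 defence genes had 0 down and a median of -0.22. Of all features 1.7% were up and 2.06% down. The dirigent protein 24-like gene (PGSC0003DMG400030182), of a family that guides the coupling of phenolic radicals, held 147 control reads and no US read. With US set to a floor of 3 reads it was at least 52.8-fold lower, and the other libraries had 0.684 to 38.2 RPM. Peroxidase 9 (PGSC0003DMG400003748) was at 7.74 and 0.165 RPM, 47.0-fold lower (21.3 to 129), and the peroxidase 9-like gene PGSC0003DMG400006386 at 6.79 and 0.329 RPM. The unnamed gene PGSC0003DMG400002855 was at 6.68 and 0.329 RPM. For these 4 genes, all on chromosome 4 but far apart, US at 0 h was the lowest of the 10 libraries and US at 24 h the highest.

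Among the other redox genes, a gene named for chloroplast Cu-Zn superoxide dismutase (PGSC0003DMG400000417), an enzyme that removes superoxide, was at 148 and 24.3 RPM and overlaps another feature. The study describes its superoxide dismutase sequence at 0 h as encoding a chaperone of the enzyme, without giving its identifier there. Whether this gene encodes the enzyme is thus uncertain. L-ascorbate oxidase (PGSC0003DMG400027914) was at 87.5 and 17.5 RPM, and peroxidase 64-like (PGSC0003DMG400003654) at 14.9 and 2.28 RPM. In the defence list, pathogenesis-related PR-1 (PGSC0003DMG400043108) was at 55.7 and 5.73 RPM. A LysM domain gene (PGSC0003DMG400014303), of a type that binds chitin, was at 21.1 and 1.62 RPM. The tetrahydrocannabinolic acid synthase-like gene PGSC0003DMG400021108 held 363 control reads and 18 US reads, with 0 in each of the 8 other libraries.

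Transcription factors showed 1 up and 4 down of 25, and 3 of the 4 were 0 h picks. The other 22 had 1 up and 1 down with a median of -0.08, beside 1.7% and 2.06% of all features. Beside the ATHB-12-like pair, the NAC 21/22-like gene PGSC0003DMG400022134 was at 40.9 RPM in the control and 3.37 RPM in US, 12.1-fold lower (10.1 to 14.7). Heat stress factor C-1 (PGSC0003DMG400000380) was at 76.4 and 11.1 RPM. The one up was scarecrow-like 3 (PGSC0003DMG400004649), a gibberellin-pathway factor in Arabidopsis, at 34.4 and 142 RPM. The low-oxygen genes, which include alcohol dehydrogenase and hemoglobin, had 0 past the rule of 6, with a median of 0.15. Of 11 lipid transfer proteins 1 was down, with a median of -0.43, and of 4 kirola-like proteins none passed the rule, with a median of 0.61.

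Nuclear photosynthesis genes were mostly lower but within 4-fold. Of 9, 8 were lower and 1, a carbonic anhydrase (PGSC0003DMG400006956) that feeds carbon dioxide to fixation and was a 0 h pick, was up at 71.7 and 524 RPM. The 7 chlorophyll a-b binding proteins, which define green tissue, were all lower in US, with a median of -1.04 and 0 past the rule, and US at 0 h was the lowest of the 10 libraries for all 7. Their sum was 119.6 RPM in the control and 62.3 RPM in US, against 168.3 to 1212 RPM elsewhere, so green-tissue markers were present but low in both 0 h libraries. Other cell type markers differed as well. The sum of 6 xylem and wall-thickening markers was 31.4 and 18.5 RPM with 2 members down, among them xylem cysteine proteinase 1-like PGSC0003DMG400029400 with 50 control reads and none in US, at least 17.96-fold lower. The 3 epidermis markers summed to 134.9 and 84.1 RPM with none past the rule, and of the 2 root endodermis markers past the level minimum 1 was down, with a median of -2.06. The 2 guard cell lineage markers were higher, summing to 34.3 and 65.2 RPM, within 4-fold. Fewer cells of a type and less RNA per cell cannot be told apart in such bulk samples, and the part of these markers in the other differences was not tested.

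The plastid-encoded type genes, all 6 chosen by the study at 0 h, held 2 up and 4 down. Photosystem II protein D1 (PGSC0003DMG400004211), the reaction centre protein that light damage turns over, was at 1318 RPM in the control and 265.8 RPM in US, 4.96-fold lower (4.85 to 5.07). The large subunit of Rubisco (PGSC0003DMG400033037) was at 448.8 and 75.5 RPM, CP47 (PGSC0003DMG400046303) at 110.1 and 17.2 RPM, and protein D2 (PGSC0003DMG400017258) at 16.3 and 1.34 RPM. Summed, these 4 were at 1893 RPM in the control at 0 h, 360 RPM in US at 0 h and 32.4 to 133.8 RPM in the 8 other libraries. The 2 ribosomal protein S7 genes were higher. PGSC0003DMG400038200 held 11 control and 1010 US reads, 85.2-fold higher (47.4 to 171), and PGSC0003DMG400011820 held 17 and 364. For the first, the control at 48 h was lower still, at 0.105 RPM against 0.325 RPM in the control at 0 h, while the other 7 libraries were above both. The files place all 6 on nuclear chromosomes, and reads of the plastid and of nuclear copies cannot be told apart here.

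ENSRNA features, non-coding by their identifier, passed the rule far more often than PGSC features. Of 100 expressed ENSRNA features 8% were up and 31% down, against 1.67% and 1.92% of 21136 PGSC features. Outside ribosomal, spliceosomal and tRNA features, 46 were expressed, 2 up and 17 down, which include the 7 described next. Many of these 46 carry a PGSC gene as their label, so their kind of RNA is not named. That labelled PGSC0003DMG400001550 was at 232.16 and 26.57 RPM, and that labelled PGSC0003DMG400043850 at 41 and 216.13 RPM. All 7 expressed RNAs of the signal recognition particle, the particle that guides secreted proteins to the endoplasmic reticulum, were down. The class summed to 456.8 RPM in the control and 53.0 RPM in US, with 195 RPM in the control at 48 h and at most 12.1 RPM in the other 7 libraries. All 4 expressed 5.8S ribosomal RNAs were down too. The largest fall of any feature was ENSRNA049463687, a 5.8S RNA on chromosome 2, with 7812 control and 14 US reads, 601-fold lower (358 to 1100). The large-subunit ribosomal features ENSRNA049463513 and ENSRNA049464063 held 239 and 107 control reads and 1 US read each, with ratios of 257 (45.8 to 10212) and 115 (20.3 to 4595). For the first the control at 48 h, at 7.04 RPM, was as high as the control at 0 h, at 7.06 RPM.

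Summed over its features, ribosomal RNA was higher in US, at 2945 RPM in the control and 7995 RPM in US and 1565 to 4067 RPM elsewhere. Small-subunit RNA carried most of this, at 2089 and 6359 RPM, although only 2 of its 24 expressed features were up and 2 down. Feature by feature, the 49 expressed ribosomal RNAs had 5 up and 14 down, with a median difference of 0.04 on the log2 scale. Among the 20 large-subunit features 3 were up and 7 down. The study kept uniquely aligned reads, so the split of reads between features of one kind is uncertain. The 3 largest rises were a large-subunit feature on chromosome 6, ENSRNA049454747 (26.7 and 304.9 RPM), a U6 spliceosomal RNA on chromosome 3, ENSRNA049456125 (8 and 54 reads), and an unplaced large-subunit feature, ENSRNA049463400 (35 and 233 reads). Protein TAR1, annotated within ribosomal DNA (PGSC0003DMG400046276), was at 749 and 3550 RPM, the 1 of 4 mitochondrial-genome and ribosomal-DNA type genes past the rule and a 0 h pick. Of the 523 tRNA features none reached 1 RPM, and of 5 spliceosomal RNAs 1 was up. The methods name a ribosomal RNA removal step, worded as for long non-coding libraries, and whether it was applied here is unclear. Libraries were made by oligo(dT) selection, and plastid, signal recognition particle and ribosomal RNAs lack the long poly(A) tail it captures. Their levels differed between the 2 libraries beside every result above, and their part in those results was not tested.

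**Figure D4:**
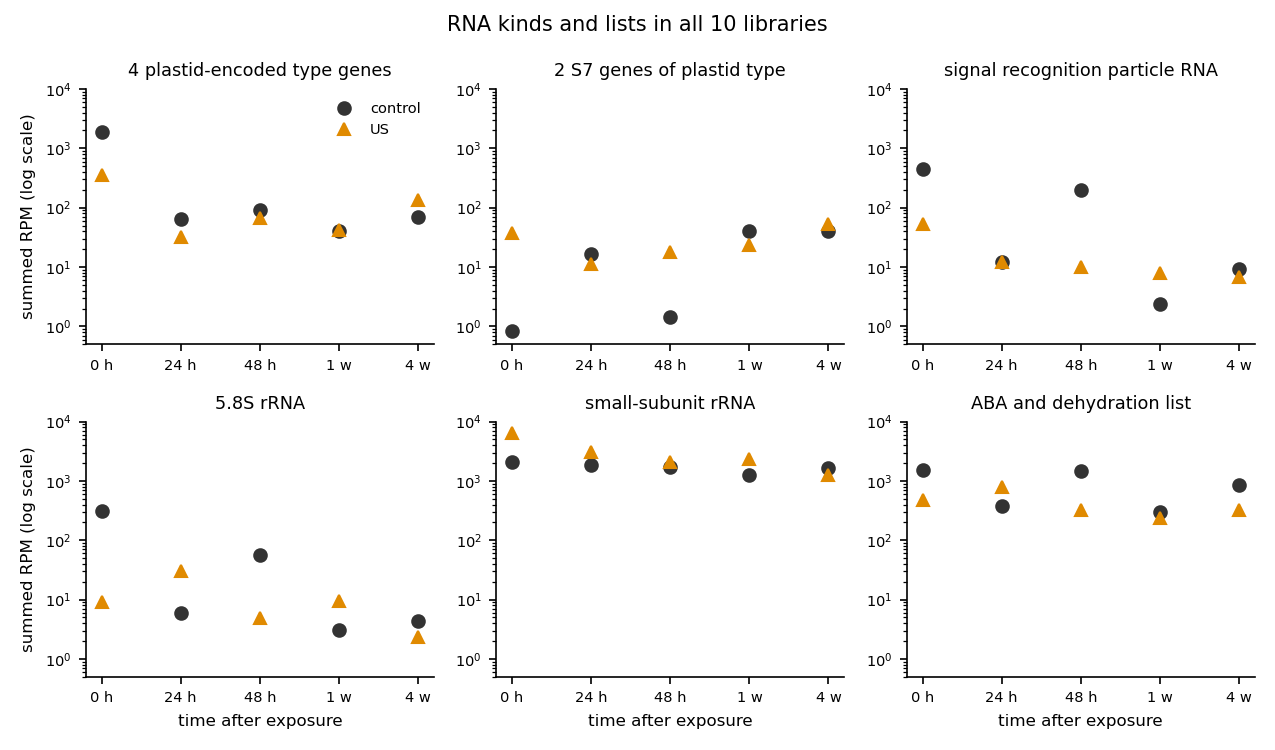
Summed RPM (y axis, log scale) of 6 groups of features in the 10 libraries by time after exposure (x axis), circles for control and triangles for US, 1 library per point. The 4 plastid-encoded type genes reach 1893 RPM in the control at 0 h, and signal recognition particle RNA is high in the controls at 0 h and 48 h (456.8 and 195 RPM).

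Along the chromosomes the response was spread out. Features up in US made up 0.977% of the expressed ones on chromosome 9 and 2.22% on chromosome 4, the lowest and highest shares of the 12. Those down ranged from 1.35% on chromosome 8 to 2.48% on chromosome 9. Chromosome 9, with 15 up and 38 down of 1535, thus had the lowest share up and the highest share down of the 12. Unplaced sequence had 4.88% up and 5.91% down of 389 features. Windows of 10 successive expressed PGSC genes with at least 4 past the rule in the same direction merged into 7 runs, 5 up and 2 down, which held 32 genes.

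The run with most genes down lay on chromosome 1 between 16459680 and 17794464 and held 6. In it, PGSC0003DMG400041047 was at 9.54 RPM in the control and 1.18 RPM in US, PGSC0003DMG400003257 at 90.9 and 16.5 RPM, and PGSC0003DMG400015062 held 96 and 3 reads. For all 6 the control at 0 h was the highest of the 10 libraries. PGSC0003DMG400015059, PGSC0003DMG400015861 and PGSC0003DMG400014757 were at 2.60 to 3.46 RPM in the control and 0.631 to 0.686 RPM in US. The run with most genes up lay on chromosome 4 between 4127931 and 4374419 and held 5. There, PGSC0003DMG400006526 was at 24.0 and 106.5 RPM, while PGSC0003DMG400006528, PGSC0003DMG400006531, PGSC0003DMG400006524 and PGSC0003DMG400010924 held 4 to 12 control and 44 to 126 US reads. US at 0 h was above the 3.48 to 11.7 RPM of the 8 other libraries for the first. A further run on chromosome 5, between 3354246 and 3401749, held the leaf rust 10 type kinase gene and 3 others. PGSC genes down in US had a median span of 1.33 kb and those up 1.96 kb, against 3.48 kb for all expressed. The sets were not matched for level, and RPM is not scaled by gene length.

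Among the largest differences, several genes had no name in the study. On the upper side PGSC0003DMG402020366 was at 0.266 RPM in the control and 6.20 RPM in US, PGSC0003DMG400008140 at 0.414 and 5.24 RPM, and PGSC0003DMG400032207 at 0.975 and 10.8 RPM. The second was at 0.184 to 1.18 RPM in the 8 other libraries, so only in US at 0 h was it above 1.18 RPM. On the lower side PGSC0003DMG400025926 was at 5.29 and 0.219 RPM, and PGSC0003DMG402022984, a hypothetical protein, at 125.8 and 7.73 RPM. The control at 0 h was the highest of the 10 libraries for both.

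The other libraries show which of the 2 stood apart. For the 437 genes down in US, the control at 0 h was above all 8 other libraries in 227 (51.9%, against 19.8% of all expressed features), and US was below all 8 in 150 (34.3%, against 28.8%). For the 360 up genes, US was above all 8 in 144 (40%, against 22.9%) and the control below all 8 in 129 (35.8%, against 30%). The genes were chosen for their difference between these libraries, so these shares are a description.

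From 0 h to 24 h in the control, the median level of the genes past the rule shifted toward that of the US library. This change was set against the US difference with the same control library at 0 h in both, so part of the likeness is built in. Of the 360 up genes 109 (30.3%) were higher in the control at 24 h by the rule of size, against 7.95% of 21796 features tested, and 6 (1.67%) lower, against 8.09%. Of the 437 down genes 206 (47.1%) were lower at 24 h and 39 (8.92%) higher. The median level of the up genes was -0.22 log2 RPM in the control at 0 h, 1.422 in the control at 24 h and 2.23 in US at 0 h. For the down genes it was 2.148, 0.80 and -0.55. The control at 24 h thus lay between the 0 h libraries in both sets, and so did every other later library. The medians of the later libraries were 0.712 to 1.726 for the up genes and -0.215 to 1.693 for the down genes. A place between the 0 h libraries is thus not particular to the control at 24 h, and the genes were chosen for the difference between those libraries. The median change from 0 h to 24 h over all features expressed at 0 h was 0.34.

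Single genes did not all take this course. NCED was at 234.5 RPM in the control at 0 h, 27.06 RPM in US at 0 h and 2.94 RPM in the control at 24 h, and Kunitz-type inhibitor C at 10.8, 281.6 and 498 RPM. The cystatin PGSC0003DMG400005950 was at 17.9, 414.9 and 97.7 RPM. Dirigent 24-like had the opposite order, with 4.34 RPM in the control at 0 h and 21.9 RPM at 24 h, when US at 0 h had 0 reads. Peroxidase 9 did so too, at 7.74 RPM, 0.165 RPM and 45.9 RPM in these libraries.

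**Figure D5:**
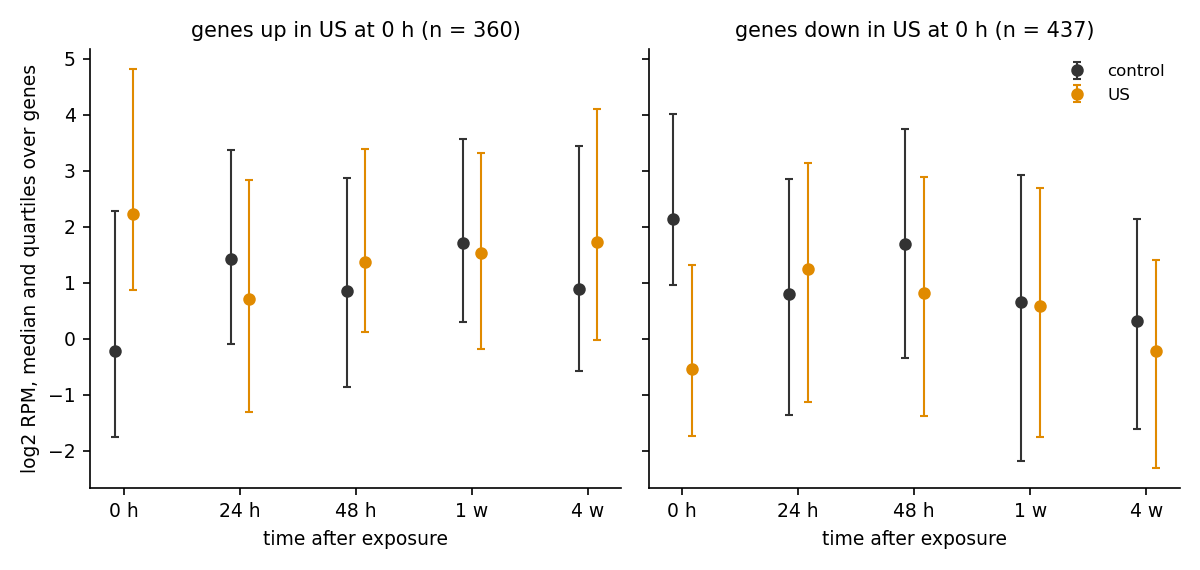
Median log2 RPM with quartiles over genes (y axis) of the 360 genes up (left) and the 437 down (right) in US at 0 h, in each of the 10 libraries by time (x axis), black for control and orange for US. The control moves from -0.22 to 1.422 and from 2.148 to 0.80 between 0 h and 24 h; bars show spread across genes, not replicates.

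At later times, in libraries the choice of genes did not use, the median US difference of the up genes alternated in sign. At 24 h the up genes had a median US difference of -0.83, with 5 past the rule up (1.39%, against 1.4% of all) and 42 down (11.7%, against 1.81%). At 48 h the median was 0.68, with 31 up (8.61%, against 1.39%) and 3 down (0.833%, against 2.8%). At 1 w it was -0.34, with 2 up (0.556%, against 0.562%) and 15 down (4.17%, against 1.17%), and at 4 w 0.63, with 45 up (12.5%, against 2.39%) and 11 down (3.06%, against 3.03%). The down genes had medians of 0.26, -0.55, 0.01 and -0.20 at these times. Past the rule, 34 of them were up at 24 h (7.78%, against 1.4% of all) and 10 down (2.29%, against 1.81%). At 48 h 11 were up (2.52%, against 1.39%) and 63 down (14.4%, against 2.8%). After 1 w 7 were up (1.6%, against 0.562%) and 16 down (3.66%, against 1.17%). After 4 w 7 were up (1.6%, against 2.39%) and 52 down (11.9%, against 3.03%). Each time is again 1 library a side, and genes are not replicates.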

How the data were processed

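Single-node explants of potato were profiled by stranded mRNA sequencing, 1 library per group. Per the labels and methods, the authors trimmed reads with TrimGalore 0.5.0, aligned them to SolTub 3.0 with HISAT2 2.1.0 and quantified exons with SeqMonk, keeping uniquely aligned reads; CASAVA 1.7 is also named in the submitters' notes. The deposited values are log2 reads per 1000000 of the library total, unfiltered. A gene without reads carries the deposited value of 0.9 reads, and from that floor whole reads were recovered: 99.97% to 99.98% of values in the 0 h libraries were within 0.1 of a whole read. Whether counting used strand is not given in the sources used here. Of 40430 features, 3124 overlap another.

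Folds are RPM ratios with exact conditional 95% intervals (Clopper-Pearson), which cover counting error only and take each read as independent. Gene reads summed to 1.71 and 1.775 times the library totals, so parts of a read pair may count more than once. A library without reads was set to 3 reads. The limma 3.58.1 fit (R 4.3.3, eBayes with trend, Benjamini-Hochberg) left out genes whose mean log2 RPM was below 0. Scripts were tested on simulated data, with a fixed noise level for limma and counting noise only for the rule of size. This checked the code, not how it performs at the spread of these libraries. Named genes were the 10 largest rises and falls among PGSC genes with at least 4 RPM, up to 4 members of each list with the largest difference, the 3 largest ENSRNA rises and falls, the runs with most genes past the rule, the 3 smallest limma p in each direction, the primer genes and those at the threshold; further list members were named after their values were seen. Lists hold genes the study names, and members and lists were chosen with earlier results of these data known. From the supplementary tables of the study only identifiers, names, times of listing and primer sequences were taken. Alternatives changed the log2 threshold, the minimum level, the pseudocount, the scaling and the features or libraries included.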

Additional observations from a re-analysis of the deposited data

Results flagged for a closer look

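Some genes past the rule of size at 0 h passed it in the opposite direction at a later time. Of the genes up in US at 0 h, 42 were down at 24 h (11.7%, against 1.81% of all features) and 3 at 48 h (0.833%, against 2.8%). After 1 w the number was 15 (4.17%, against 1.17%) and after 4 w it was 11 (3.06%, against 3.03%). Of the genes down in US at 0 h, 34 were up at 24 h (7.78%, against 1.4%) and 11 at 48 h (2.52%, against 1.39%). After 1 w and after 4 w the number was 7 each (1.6%, against 0.562% and 2.39%). The shares at 48 h and 4 w of the first set and at 4 w of the second were thus near or below those of all features. With 1 library per group these opposite directions were not tested gene by gene beyond the limma fit, in which 0 of 20494 genes passed. In that fit 983 had an unadjusted p under 0.05, no more than the share of 0.05 that comes with no deviation.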

How the results depend on the processing

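The counts at 0 h, 360 up and 437 down, depended on the threshold. They were 2083 and 2042 with a log2 difference of at least 1, 190 and 231 with at least 4 RPM in the higher library, and 1206 and 1276 with no minimum level. A pseudocount of 0.5 RPM gave 161 and 201, and requiring the bound of the 95% interval past 4-fold gave 159 and 223. Quantile normalization (372 and 429), a shift to a median difference of 0 (345 and 449), PGSC genes only (352 and 406) and features without overlap (333 and 394) stayed within 1.5 times. Under quantile normalization 3 of 217 single genes changed sign, each within 0.133 of no difference and none past the rule. PGSC0003DMG400009513 was the one of them outside its counting interval, at -0.13 and then 0.15. Among these 217 genes, 1 left the rule at this setting (PGSC0003DMG400026934) and 1 entered it (PGSC0003DMG400030332). Over all features, 355 of the 360 up and 424 of the 437 down stayed past the rule, and others entered. The limma count was 0 under all 8 alternatives run, with 379 to 1322 genes at an unadjusted p under 0.05. The smallest adjusted p ranged from 0.0741 without the 24 h pair to 1, and was 0.318 without the 48 h pair.

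Binned by the 8 other libraries, the shares below a mean of 0 were 8.17% up and 13.7% down, and between 0 and 2 they were 3.9% in both directions. Between 2 and 4 they were 1.7% up and 1.97% down. With a log2 difference of at least 1 from 0 h to 24 h in the control, 182 up genes were higher and 15 lower, and 64 down genes were higher. Members of the gene lists (markers aside) then numbered 38 up and 56 down, against 23 and 28. Libraries were paired by time only, as the block of the limma fit. No paired analysis was possible within a time because each group there is 1 library. Depth limits the low end: 79 up and 99 down features had fewer than 10 reads in the lower library.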
